A study of Mus musculus with 4 samples.

Results

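The genes described here are 9 genes of transforming growth factor beta (TGF-beta) signalling: the ligands Tgfb1, Tgfb2 and Tgfb3, the receptors Tgfbr1 and Tgfbr2, the signal carriers Smad2 and Smad3, the inhibitor Smad7 and the target gene Tgfbi. They were chosen by gene symbol in the platform annotation, without use of their values. Of these 9 genes, 8 had spots, which makes 22 spots of the 33653 that name 1 gene and 8 of 19088 genes in all. Smad7 was not analysed here. A spot was called faint on an array where 3 or more spots there had exactly the same value, as happens with ratios of low signals, and clear where it was faint on no array. Of the 22 spots, 17 were clear.

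The ratios come from mouse fibroblast cybrids, cells that pair the nucleus of the line LMEB3 with mitochondria of another strain. The mtB6 control cybrids carry mitochondria of C57BL/6J and the mtBALB cybrids, called mutant in the labels, carry those of BALB/cJ. All were at passage 3 and grew in high glucose medium with serum, and no agent was added per the labels. Each of 4 two-colour arrays held RNA of 1 mtB6 and 1 mtBALB culture, with mtB6 in Cy5 on replicates 1 and 3 and in Cy3 on replicates 2 and 4. The labels speak of biological replicates and of independent clones without saying which clone is on which array, so that p-values cover the spread between these pairs. The deposited values are log ratios between the channels of an array, taken here as turned to 1 direction between the lines, which the labels do not state. Which line is the numerator is not stated, so a sign below gives the side of the ratio and names no line as the higher. A ratio carries no level, so the fibroblast label could not be checked against levels. Of 10 fibroblast markers, 7 had a clear spot, against 0 of 5 epithelial, 0 of 5 endothelial, 2 of 4 measured leukocyte and 2 of 4 skeletal muscle markers. The clear muscle markers were Myod1, a muscle transcription factor, with 1.34, -1.32, 0.67 and -1.31 on replicates 1 to 4, which follows the dye orientation, and the filament protein Des with 0.14, -0.63, 0.04 and 0.39. The mean over the muscle markers was 0.41, -0.53, 0.21 and -0.25. The clear leukocyte markers were Lyz2 and Tyrobp, both below 0 on all 4 arrays, as 4.65% of all genes were. The clear spot of Lyz2 had -0.58, -1.24, -0.53 and -0.40, and its other spot, faint on all 4 arrays, had a mean of 0.04. Tyrobp had -0.17, -0.02, -0.16 and -0.08. The part of the muscle and leukocyte markers in the results below was not tested. In cultures of 1 cell type a lower ratio can mean less RNA per cell or fewer cells that express the gene, and these cannot be told apart.

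TGF-beta is secreted in a latent form that binding proteins hold in the matrix, and integrins or proteases release it. The free ligand joins a type II receptor (Tgfbr2) to a type I receptor (Tgfbr1), which phosphorylates SMAD2 and SMAD3. These enter the nucleus with SMAD4 and change transcription, and the product of Smad7 blocks the type I receptor. In fibroblasts the pathway is known for raising the synthesis of collagen and fibronectin and for turning cells into contractile myofibroblasts.

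None of the 8 measured genes passed the test for a difference between the cybrid lines. In limma's test over all 19088 genes, 0 of these 8 passed an adjusted p of 0.05, and the adjusted p was 0.9997 for each. Over all genes 0 passed as well (0% of those tested), and 694 genes (3.64%) had an unadjusted p under 0.05. None of the 8 was among these 694, and their unadjusted p-values in limma ran from 0.183 for Tgfb3 to 0.833 for Smad3. None of the 8 lay on 1 side of 0 on all 4 arrays, as 9.02% of all genes did. Their median log2 ratio between the lines was -0.03, with 3 means above and 5 below 0, where 49.5% of all genes had a mean above 0 and 50.5% below. The median over all genes was -0.00.

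**Figure D1:**
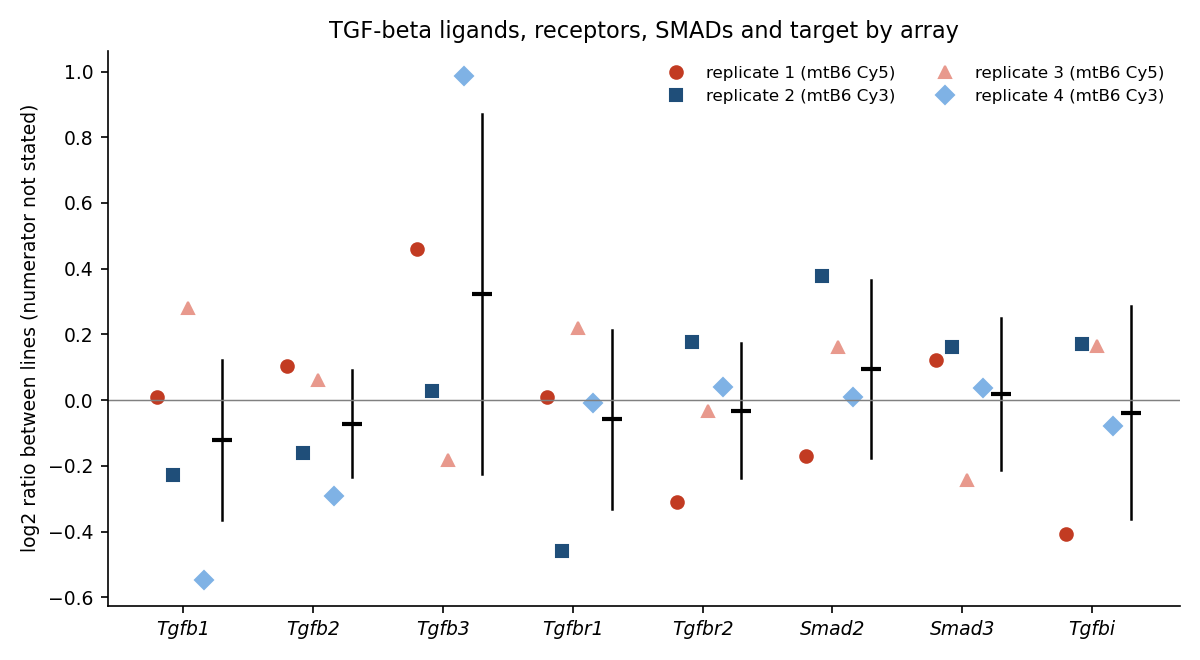
The log2 ratio between the lines (vertical axis) is plotted for each gene, with 1 symbol per array, coloured by whether mtB6 carried Cy5 or Cy3, and the mean with limma's 95% interval in black. Every interval spans 0, and Tgfb3 has the widest spread, from -0.18 on replicate 3 to 0.99 on replicate 4.

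Among the ligands, Tgfb3, the isoform known from palate and wound studies, had the largest mean and the widest spread. Its single spot had log2 ratios of 0.46, 0.03, -0.18 and 0.99 on replicates 1 to 4. Replicates 1 and 4 were clearly on the positive side, replicate 2 lay near 0 and replicate 3 on the other side. The mean was 0.32 ± 0.52 (SD, n = 4), with a 95% interval in limma of -0.23 to 0.87. The mean was 0.16, 0.56, 0.48 and 0.08 without replicates 1 to 4 in turn. Here and below a mean with a replicate left out is limma's fitted one, the midpoint between the means of the 2 dye orientations. With all 4 arrays it equals the plain mean, but with 3 arrays it need not. The SD of Tgfb3 was at percentile 94.5 of all genes, and at percentile 89.8 of the 9774 genes with a clear spot.

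Tgfb1, the most widely expressed ligand in many tissues, was measured by 10 spots, so its value on an array rests on more than 1 spot. Averaged over its spots, Tgfb1 had log2 ratios of 0.01, -0.23, 0.28 and -0.55 on replicates 1 to 4. The 10 spots lay between -0.31 and -0.18 on replicate 2, between 0.15 and 0.42 on replicate 3 and between -0.73 and -0.34 on replicate 4. On these 3 arrays all 10 spots fell on 1 side of 0, while on replicate 1 there were 6 above and 4 below. The SD between spots of an array was 0.05 to 0.13, and the SD between the arrays' means was 0.35. The first covers technical error within an array only, and the second holds the dye effect and the difference between culture pairs as well. The mean over arrays was -0.12 ± 0.35 (SD, n = 4), with a 95% interval of -0.37 to 0.12. The mean was -0.05, -0.20, -0.19 and -0.04 without replicates 1 to 4 in turn.

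**Figure D2:**
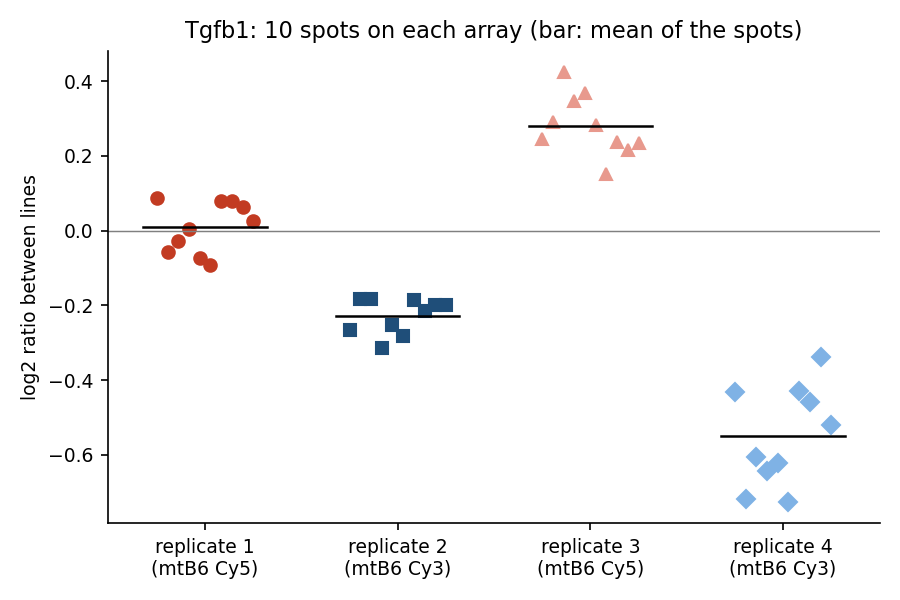
Each point is 1 of the 10 Tgfb1 spots, with its log2 ratio between the lines on the vertical axis, the 4 arrays along the horizontal axis and a bar at the mean of the spots. The spots of replicates 2 and 4 all lie below 0, those of replicate 3 all lie above 0, and those of replicate 1 lie around 0.

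Tgfb2, a ligand known for its part in heart and eye development, had log2 ratios of 0.10, -0.16, 0.06 and -0.29 on replicates 1 to 4. Its mean was -0.07 ± 0.19 (SD, n = 4), with a 95% interval of -0.23 to 0.09, and its 1 spot was faint on all 4 arrays. The mean was -0.08, -0.10, -0.06 and -0.04 without replicates 1 to 4 in turn. Both Tgfb1 and Tgfb2 were above 0 where mtB6 carried Cy5 and below 0 where it carried Cy3, with Tgfb1 at only 0.01 on replicate 1. For Tgfb1 the mean was 0.14 in the first orientation and -0.39 in the other. The dye term in limma was 0.27 for Tgfb1 (unadjusted p = 0.0382, adjusted p = 0.547) and 0.15 for Tgfb2 (unadjusted p = 0.0587, adjusted p = 0.563), so neither passed over all genes.

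The type I receptor Tgfbr1 had mean log2 ratios over its 2 spots of 0.01, -0.46, 0.22 and -0.01 on replicates 1 to 4. Replicates 1 and 4 were near 0 and replicates 2 and 3 went opposite ways. The mean was -0.06 ± 0.29 (SD, n = 4), with a 95% interval of -0.33 to 0.21, and it was -0.01, 0.05, -0.11 and -0.17 without replicates 1 to 4 in turn. The clear spot had -0.11, -0.58, 0.26 and 0.18, and the spot faint on all 4 arrays had 0.13, -0.33, 0.18 and -0.19, so they differed in sign on replicates 1 and 4.

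Tgfbr2, the receptor that binds the ligand first, had mean log2 ratios over 3 spots of -0.31, 0.18, -0.03 and 0.04 on replicates 1 to 4. Only replicate 1 was far below 0. The mean was -0.03 ± 0.21 (SD, n = 4), with a 95% interval of -0.24 to 0.17, and it was 0.04, -0.07, -0.10 and 0.00 without replicates 1 to 4 in turn. The 1 clear spot had a wider range, with -0.68, 0.32, -0.16 and 0.09, and a mean of -0.11. The other spots of Tgfbr2 were faint on all 4 arrays and had means of 0.05 and -0.04, so the average over spots is narrower than the clear spot alone.

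The ratios of both receptors also changed sign with the dye orientation, Tgfbr1 in the sense of Tgfb1 and Tgfbr2 in the opposite sense. Such alternation was seen in 4 of the 8 genes and in 21.3% of all genes. This count rests in part on ratios near 0. Tgfbr1 had 0.01 on replicate 1 and -0.01 on replicate 4, and its clear spot did not alternate. Tgfb1 had 0.01 on replicate 1. No dye term passed in limma: 0 of the 8 genes and 0 of all genes (0%) had an adjusted p under 0.05, and 8.98% of all genes had an unadjusted p under 0.05.

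Of the SMADs that the type I receptor phosphorylates, Smad2 had log2 ratios of -0.17, 0.38, 0.16 and 0.01 on replicates 1 to 4. Replicates 2 and 3 were positive, replicate 4 was near 0 and replicate 1 was negative. The mean was 0.09 ± 0.23 (SD, n = 4), with a 95% interval of -0.18 to 0.37, and it was 0.18, 0.00, 0.01 and 0.19 without replicates 1 to 4 in turn. Smad3 had mean log2 ratios over 3 spots of 0.12, 0.16, -0.24 and 0.04. Only replicate 3 was negative, and all 3 spots lay below 0 there, at -0.25, -0.06 and -0.41. The mean of Smad3 was 0.02 ± 0.18 (SD, n = 4), with a 95% interval of -0.21 to 0.25. It was -0.01 over the 2 clear spots, and -0.07, -0.01, 0.11 and 0.05 without replicates 1 to 4 in turn. The pair of SMADs was on the same side of 0 on replicates 2 and 4 and on opposite sides on replicates 1 and 3.

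Tgfbi, a secreted matrix protein that was named for its induction by TGF-beta, had log2 ratios of -0.41, 0.17, 0.17 and -0.08 on replicates 1 to 4. Replicates 2 and 3 were alike and replicate 1 was the lowest. The mean was -0.04 ± 0.27 (SD, n = 4), with a 95% interval of -0.36 to 0.29, and it was 0.11, -0.10, -0.18 and 0.02 without replicates 1 to 4 in turn. Tgfbi and Tgfb1 were on the same side of 0 on replicates 3 and 4 and on opposite sides on the others.

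The 8 genes had no pattern over the arrays in common. On replicates 1, 2 and 3 there were 5 above 0 and 3 below, and on replicate 4 there were 4 on either side. The mean over the 8 genes was -0.02, 0.01, 0.05 and 0.02 on replicates 1 to 4. The order of the means ran from Tgfb3 at 0.32 through Smad2 at 0.09, Smad3 at 0.02, Tgfbr2 at -0.03, Tgfbi at -0.04, Tgfbr1 at -0.06 and Tgfb2 at -0.07 to Tgfb1 at -0.12. Each neighbour in this order lay within the spread of the next. The 3 genes whose 4 ratios came closest to those of Tgfb3, among 9773 others with a clear spot, were Bphl, Hsd3b7 and Pcx. Their root mean square differences from Tgfb3 were 0.12, 0.17 and 0.19 on the log2 scale. Bphl, a hydrolase, had 0.27, 0.07, -0.09 and 0.88 on replicates 1 to 4 and a mean of 0.28 ± 0.42 (SD, n = 4). Hsd3b7, an enzyme of bile acid synthesis, had a mean of 0.22 ± 0.56 and Pcx, the pyruvate carboxylase of mitochondria, had 0.22 ± 0.40. With 1 replicate left out the means ranged from 0.08 to 0.49 for Bphl, 0.02 to 0.42 for Hsd3b7 and 0.05 to 0.40 for Pcx, with the lowest of Bphl and Hsd3b7 without replicate 4 and that of Pcx without replicate 1. None of these 3 passed in limma (adjusted p = 0.9997 for each).

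Other parts of the pathway were described with 6 further lists that hold 99 genes, 95 of them measured. In limma 0 of these 95 passed the adjusted threshold (0% of all genes did), and 2 on either side had an unadjusted p under 0.05 (1.59% of all genes above 0 and 2.05% below 0). On all 4 arrays 3 of the 95 lay above 0 and 1 lay below 0, as 4.37% and 4.65% of all genes did. Their median log2 ratio between the lines was -0.00. In what follows the adjusted p in limma was 0.9997 for every gene named.

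Of 13 measured genes in the list for latency and activation of TGF-beta, 6 had a positive and 7 a negative mean. Itgb6, a subunit of an integrin that releases the ligand, had 0.09 ± 0.05 (SD, n = 4), and none of its spots was clear. Ltbp2, a matrix protein named for the family of latent TGF-beta binding proteins, had -0.35, 0.17, -0.30 and 0.15 on replicates 1 to 4, which follows the dye orientation. Of 19 activin and bone morphogenetic protein (BMP) ligands and their antagonists, 1 had a clear spot. In that list Nog, which binds BMPs, had 0.10 ± 0.16 (0.03 to 0.16 with 1 replicate left out), and Lefty2, which blocks nodal, had 0.09 ± 0.34 (0.02 to 0.17). Each had 1 spot, which was faint on 3 arrays. Lefty2 had 0.51, -0.24, 0.21 and -0.11 on replicates 1 to 4, which follows the dye orientation.

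Of 13 other receptors, 6 means were positive and 7 negative. Amhr2, the receptor of anti-Müllerian hormone, was negative on all 4 arrays, with -0.15, -0.42, -0.49 and -0.11 and a mean of -0.29 ± 0.19 (SD, n = 4). Bmpr2, the type II receptor of BMPs, had -0.63, -0.26, 0.06 and -0.15, with a mean of -0.25 ± 0.29. Its 3 spots had means of -0.34, -0.23 and -0.17, and the mean was -0.07 without replicate 1 and -0.42 without replicate 3. Among 20 other SMADs and SMAD regulators, 9 means were positive and 11 negative. Smurf2, a ubiquitin ligase that Smad7 brings to the receptor, had 0.30, 0.45, -0.09 and 0.46 on replicates 1 to 4 and a mean of 0.28 ± 0.26, or 0.18 without replicate 1. Skil, a repressor of SMAD transcription, had -0.39, 0.17, -0.51 and -0.13 and a mean of -0.21 ± 0.30, or -0.14 without replicate 4. Its spots disagreed, with a mean of -0.31 for the clear spot and -0.11 for a spot faint on 3 arrays.

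The genes known to respond to TGF-beta had larger spreads between the arrays than the signalling genes. An SD over arrays of at least 0.5 on the log2 scale, a limit set after the values were seen, was reached by 8 of 14 regulatory targets and 5 of 16 matrix and contractile targets. It was reached by 1 of the 8 ligands, receptors, SMADs and Tgfbi, namely Tgfb3, and by 0 of 65 genes of the other 4 lists. Over all genes 6.01% reached it, and 11.1% of the genes with a clear spot. Among targets with a clear spot it was reached by 12 of 21. A clear spot was present for 6 of 13 latency genes, 1 of 19 other ligands, 7 of 13 other receptors and 19 of 20 SMAD regulators. The lists are thus not matched for signal. The median SD was 0.57 for the regulatory targets and 0.44 for the matrix targets, against 0.25 for the 8 genes and 0.24 for all genes with a clear spot. Many of these targets answer other signals too, serum and BMPs among them, and the ratios do not separate these.

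**Figure D3:**
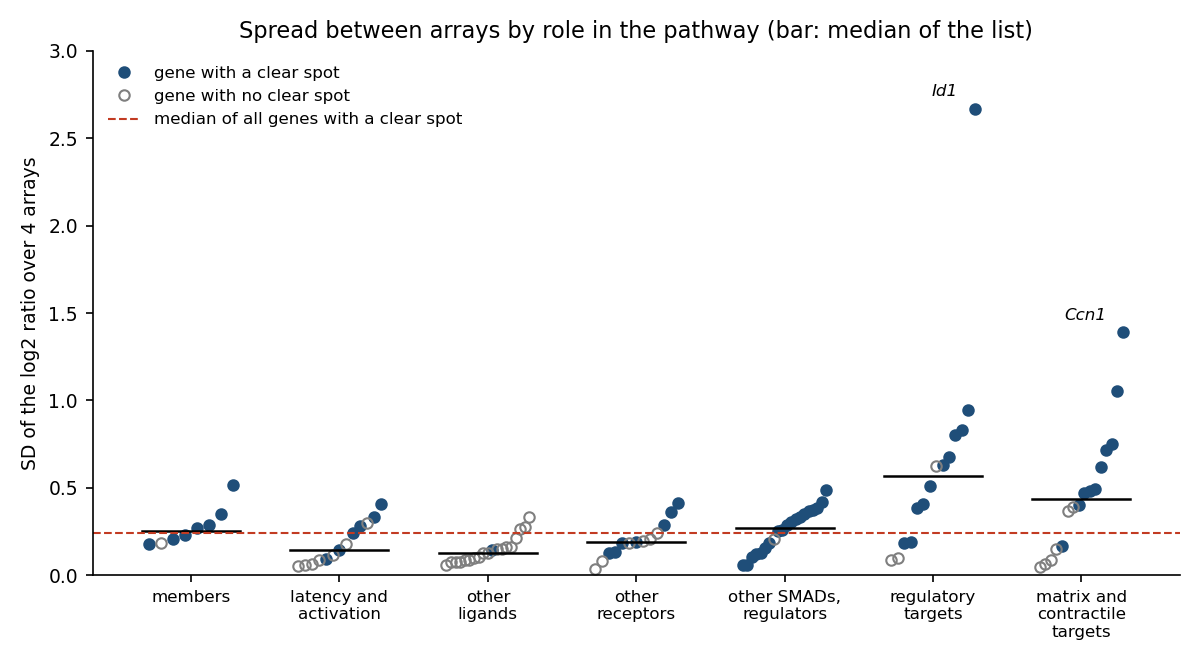
Each point is a gene, with the SD of its log2 ratio over 4 arrays on the vertical axis and its role in the pathway along the horizontal axis. Filled points have a clear spot, bars mark list medians, and the dashed line marks the median of 0.24 over all such genes. The target lists reach up to Id1, while the signalling lists stay under 0.5 except for Tgfb3.

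The regulatory targets leaned to the negative side on replicate 3, where 11 of 14 were below 0, and to the positive side on replicate 4, where 11 of 14 were above 0. On the same arrays 49.1% and 51.2% of all genes were below 0. The list mean was 0.23, -0.16, -0.75 and 0.45 on replicates 1 to 4, and the list median was 0.23, -0.03, -0.32 and 0.42, since Id1 and Myc lie far below the others on replicate 3. Of members picked once their values were known, Id1, an inhibitor of helix-loop-helix factors that SMADs control directly, had 0.96, -1.05, -3.34 and 2.88 on replicates 1 to 4. Its paralog Id2 had 0.38, -0.47, -1.25 and 0.45, and Id3 had 0.16, -0.25, -0.96 and 0.50. The 3 Id genes were thus positive on replicates 1 and 4 and negative on replicates 2 and 3. One spot of Id2 departed from this, with 0.07 on replicate 3 and -0.86 on replicate 4, where the other spots had -1.81 and -2.02 on replicate 3 and 1.27 and 0.95 on replicate 4. The spot of Id3 was faint on 1 array. Junb, a subunit of AP-1, had 0.65, 0.32, -1.20 and 0.35. Snai1, a repressor of epithelial genes, had 0.54, 0.24, -0.90 and 0.52, and Klf10, a zinc finger protein that TGF-beta induces early, had 1.14, -0.03, -0.30 and 0.44. Because the arrays disagreed in sign, the means over arrays were within their spread, at -0.14 ± 2.67 for Id1, 0.03 ± 0.83 for Junb and 0.31 ± 0.63 for Klf10 (SD, n = 4). Without replicate 3 the mean of Id1 was 0.94, and without replicate 4 it was -1.21.

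The members the rule names in this list are Myc and Cdkn1a, genes that TGF-beta is known to repress and to induce in epithelial cells. Myc had -0.33, -0.76, -1.87 and 0.40 on replicates 1 to 4 over 12 spots, a mean of -0.64 ± 0.95 (SD, n = 4). That mean was -1.02, -0.35, -0.26 and -0.93 without replicates 1 to 4 in turn. Cdkn1a followed the dye orientation over 10 spots, with 0.33, -0.47, 0.07 and -0.41 and a mean of -0.12 ± 0.39, or -0.18 without replicate 1 and -0.06 without replicate 3. Pmepa1, a direct SMAD target that restrains the pathway, stayed near 0 with 0.02 ± 0.10, and none of its spots was clear.

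The promoters of Id2 and Id3 are shown because these genes varied together. They are RefSeq windows of GRCm38.p6, 300 bases around the annotated start, taken for 2 of the 3 Id genes. No window of Id1 is shown. Capitals mark the letters of 2 motifs searched on both strands: CAGAC, the short SMAD box, and GGCGCC, a GC element of BMP-responsive promoters. TATAAA was searched too and had no match in either window. The Id2 window lies at chr12:25096043-25096342 on the minus strand and the Id3 window at chr4:136143572-136143871 on the plus strand.
Id2: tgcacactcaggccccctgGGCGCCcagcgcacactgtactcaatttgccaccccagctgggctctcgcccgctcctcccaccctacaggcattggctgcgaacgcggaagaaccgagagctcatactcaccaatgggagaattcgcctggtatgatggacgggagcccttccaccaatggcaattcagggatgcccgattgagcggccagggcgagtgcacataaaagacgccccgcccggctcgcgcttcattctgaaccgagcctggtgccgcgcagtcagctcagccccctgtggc
Id3: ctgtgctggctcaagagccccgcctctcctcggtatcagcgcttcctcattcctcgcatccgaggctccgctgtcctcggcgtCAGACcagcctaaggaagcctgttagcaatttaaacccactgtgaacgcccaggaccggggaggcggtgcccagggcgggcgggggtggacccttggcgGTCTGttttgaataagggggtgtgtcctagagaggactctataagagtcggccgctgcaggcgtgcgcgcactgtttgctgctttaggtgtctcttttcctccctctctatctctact
The Id2 window holds 1 match of GGCGCC and 0 of CAGAC, and the Id3 window holds 2 of CAGAC and 0 of GGCGCC. Of 32851 windows of the same length, 49.6% hold CAGAC, 11.9% hold GGCGCC and 13.6% hold TATAAA. The matches describe these letters only, and binding was not measured.

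Of the matrix and contractile targets, 7 means were positive and 9 negative. Col1a1, the main chain of type I collagen, had 2.51, -0.02, 0.84 and 1.12 on replicates 1 to 4 over 12 spots, and a mean of 1.11 ± 1.05 (SD, n = 4) with an unadjusted p = 0.0297 in limma. Without replicates 1 to 4 in turn the mean was 0.69, 1.40, 1.53 and 0.83. Its partner chain Col1a2 had 0.68, -0.30, 0.31 and 0.19, a mean of 0.22 ± 0.40, or 0.13, 0.35, 0.31 and 0.10 without replicates 1 to 4 in turn. Col1a2 averages a clear spot with a mean of 0.39 and a spot faint on 3 arrays with 0.06. Tgfb1 shared the order of neither collagen chain over the arrays, being highest on replicate 3 and lowest on replicate 4. Of members picked once their values were known, fibronectin (Fn1) had 0.52, -0.94, 0.16 and 0.76 over 12 spots. The type III collagen Col3a1 had 0.11, -1.27, -0.01 and 0.31, where replicate 2 rests on its 1 clear spot at -3.92 against 0.13 and -0.01 for spots faint on all 4 arrays. Replicate 2 was the lowest array for Col1a1, Col1a2 and Fn1. Ccn1, a matricellular protein that serum also induces, had -0.04, -0.57, -2.66 and 0.52 and was lowest on replicate 3, where the Id genes were lowest too. The smooth muscle actin Acta2, a marker of myofibroblasts, had 0.19, -0.22, -0.04 and -0.04, a mean of -0.03 ± 0.17 over 14 spots, of which 5 were clear. The fibroblast markers, of which 3 are in this list as collagens and 1 as fibronectin, had list means of 0.38, -0.28, 0.05 and 0.13 on replicates 1 to 4. Their list medians were 0.11, -0.15, 0.08 and 0.15. Of the 10 markers, 5 had a positive and 5 a negative mean, and 1 was negative on all 4 arrays, as 4.65% of all genes were. That marker was Pdgfrb, whose 1 spot was clear, with -0.44, -0.14, -0.49 and -0.79 on replicates 1 to 4 and a mean of -0.47. The part of these markers in the matrix ratios was not tested.

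**Figure D4:**
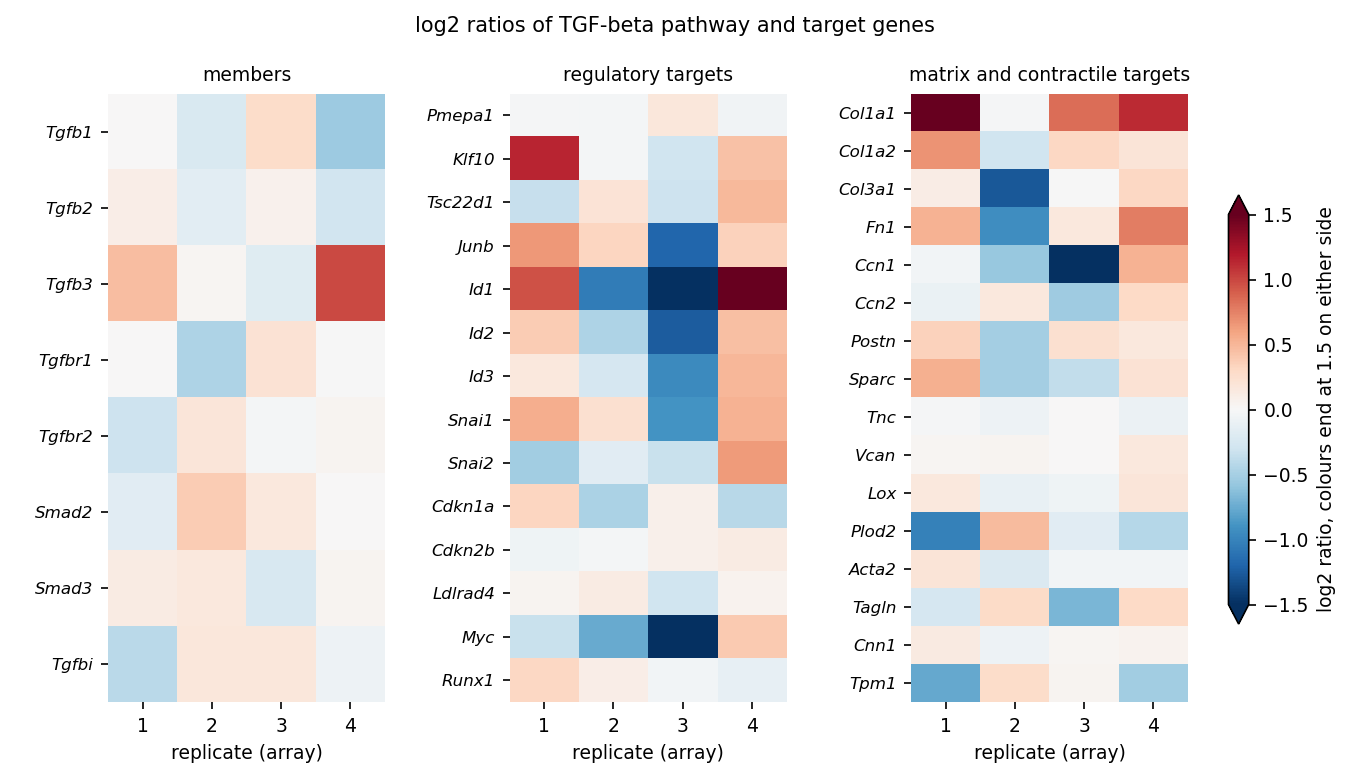
Colours give the log2 ratio between the lines for each gene (rows) on each of the 4 arrays (columns), in red above 0 and in blue below, with colours that end at 1.5 on either side. The signalling genes are pale except for Tgfb3 on replicate 4 at 0.99, while Id1 runs from -3.34 on replicate 3 to 2.88 on replicate 4.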

How the data were processed

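The deposited values are log2 ratios between the channels of each array, 1 per spot. Limma is named, with no version, in the submitters' processing notes. How background was corrected and the arrays normalized, and the base of the logarithm, were not stated in the sources used here. Base 2 was assumed. Without scanner intensities signal over background stays unknown, and precision is limited by the number of arrays. Array medians lay between -0.0033 and 0.0051.

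The ratios were taken as already turned to 1 direction between the lines. The ground is 171 spots without a gene and with ratios of 0.6 or more in size on every array. For 163 of them the sign follows the dye, and 0 keep 1 sign. Control transcripts would do so after turning, but nothing here identifies these spots as controls. Transcripts that differ between the lines would do so without turning. The turning is thus an assumption that these spots cannot settle, and what is called line or dye here rests on it. The other reading was an alternative. Over all spots Pearson's r was -0.24 to -0.17 for arrays of opposite orientation, -0.00 for replicates 1 and 3 and 0.27 for replicates 2 and 4.

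Symbols were updated by gene ID through RefSeq (GRCm38.p6, 18966 genes matched), and the spots of a gene were averaged per array without a filter. Of 45220 spots, the 33653 with 1 gene were used, and 53.7% to 56.0% were faint per array. Limma 3.58.1 (R 4.3.3; lmFit, eBayes) fitted the mean ratio and a dye term, leaving 2 residual degrees of freedom per gene, with Benjamini-Hochberg adjustment over all genes. The fit was tested on simulated data. Intervals are limma's at 95%, and the SD beside a mean includes the dye effect. The dye term stayed in the fit when a replicate was left out. A mean given for that case is thus the midpoint between the means of the 2 dye orientations, not the plain mean of the arrays kept. With 4 arrays an exact two-sided sign-flip test has a smallest p of 0.125, and none was run. Named genes are all measured genes of the pathway set, the 2 of smallest p in each of 6 pathway lists and the 3 nearest to the gene of largest SD. Id1, Id2, Id3, Junb, Snai1, Klf10, Ccn1, Col3a1, Fn1, Pmepa1 and Acta2 of the target lists fall outside this rule. They were picked once their values were known. The same holds for the muscle markers Myod1 and Des, the leukocyte markers Lyz2 and Tyrobp and the fibroblast marker Pdgfrb. The genes and lists were chosen with earlier results of these data known. Alternatives changed the dye term, the spots used, scaling, turning, the variance prior, symbols and replicates.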

Additional observations from a re-analysis of the deposited data

Results flagged for a closer look

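Pmepa1 had 0.168 on replicate 3, far from the other 3 arrays by Dixon's criterion for 4 samples. It was 1 of 41 genes and list means examined, and chance marks about 1 in 20.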

How the results depend on the processing

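No alternative brought a gene past the adjusted threshold, whether the dye term was dropped, spots were summarised by their median, faint spots were left out, arrays were scaled alike or quantile normalized, replicates 2 and 4 were turned, the variance prior was robust, platform symbols were kept or a replicate was left out. Over the settings that kept all spots and all arrays, limma gave 557 to 1714 of 19088 genes at an unadjusted p under 0.05. The fit reported gave 694, and clear spots alone gave 270 of 9774 genes. With the ratios of replicates 2 and 4 turned, 1714 genes had such a p, Tgfb1 among them (unadjusted p = 0.0382, adjusted p = 0.547), and the log2 ratio changed sign for Tgfb1 (0.27), Tgfb2 (0.15), Tgfb3 (-0.18), Tgfbr1 (0.17), Smad2 (-0.0988), Smad3 (-0.0789), Itgb6 (-0.0291), Nog (-0.0928), Smurf2 (-0.17), Cdkn1a (0.32), Bphl (-0.19), Hsd3b7 (-0.31), Pcx (-0.0635), Junb (-0.30), Snai1 (-0.28), Col3a1 (0.27) and Acta2 (0.10). Turning these replicates swaps the line term and the dye term of the model. The values under it are thus the dye terms of the fit reported and add no separate result for Tgfb1. The cause of the dye terms was not tested. Over clear spots alone Smad3 had -0.0109 and Acta2 0.0122, by the median of spots Col3a1 had 0.0303, and with quantile normalization Id1 had 0.0016. Leaving out 1 replicate gave ranges that span 0 for Tgfbr1 (-0.17 to 0.0537), Tgfbr2 (-0.10 to 0.0379), Smad3 (-0.0718 to 0.11), Tgfbi (-0.18 to 0.11), Id1 (-1.21 to 0.94), Id2 (-0.63 to 0.19), Id3 (-0.42 to 0.14), Junb (-0.43 to 0.49), Snai1 (-0.26 to 0.46), Klf10 (-0.0500 to 0.67), Col3a1 (-0.61 to 0.18), Fn1 (-0.30 to 0.55), Pmepa1 (-0.0264 to 0.0653) and Acta2 (-0.0816 to 0.0303). The alternatives for the count of genes with an SD of at least 0.5 were chosen after seeing the data. Where all spots were kept, 10 to 14 of 30 target genes reached it (33.3% to 46.7%), against 5.53% to 7.85% of all genes. Over clear spots alone 14 of 21 target genes reached it (66.7%), against 14.7% of all genes. The count in the pathway set fell from 1 to 0 of 8 without replicate 3 or 4. No paired analysis was possible because none remained beyond the one reported: each ratio already sets the 2 cultures of a replicate number against each other. Background correction and a slide block were not run, since scanner files were not used here.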
